A study of Mus musculus with 6 samples.

Results

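The T cell receptor complex reads antigen through its alpha and beta chains and passes the signal inward through the CD3 chains and a short relay of kinases and adaptors. The genes described here are 9 of the 32227 genes counted, taken by symbol: the CD3 chain genes Cd3d, Cd3e, Cd3g and Cd247, the kinase genes Lck, Fyn and Zap70, and the adaptor genes Lat and Lcp2. They were taken for their function in the receptor's signal. As background, LCK phosphorylates the ITAM motifs of the CD3 and zeta chains, ZAP-70 docks on them and phosphorylates the adaptors LAT and SLP-76, and these gather the enzymes that release calcium and activate RAS and NF-kappa-B. In the thymus the CD3 chains first signal with the pre-T cell receptor and later with the mature receptor during selection. In mature CD8 T cells, PD-1 is known to restrain this relay through phosphatases.

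Single cells were profiled with PIPseq, a droplet method in which unique molecular identifiers (UMIs) tell apart the RNA molecules counted, from adult mice on a C57BL/6 background. Mice of the label Pdcd1fl/fl carry loxP sites in both Pdcd1 alleles. Pdcd1 cKO mice carry the same alleles with a Cre transgene under the CD8 E8I enhancer. CD8 T cells were isolated from the thymus and the spleen at baseline, and from B16-OVA melanomas on day 12 after injection of the tumor cells, which express ovalbumin. Each label had 1 library per tissue, 6 libraries in all, with the tumor libraries pooled from several mice and the others from single mice. By the study's account Cre under E8I acts in CD8 T cells once positive selection in the thymus is past, so thymocytes before that stage keep the gene in both groups of mice.

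In each pair of values that follows, the library labelled Pdcd1fl/fl comes first. The files held 1067 and 2674 barcodes for the thymus, 6929 and 4963 for the spleen, and 457 and 561 for the tumors. Total UMIs of the thymus libraries were 6389966 and 19304377, those of the spleen libraries 5935926 and 8964626, and those of the tumor libraries 9401747 and 7924590. A cell was kept if it had 500 or more genes, 1000 or more UMIs and no more than 20% of its UMIs from mitochondrial genes. They were split into cells with CD8 RNA, meaning at least 1 UMI of Cd8a or Cd8b1, and cells without. Cells with CD8 RNA numbered 589 and 1753 (thymus), 863 and 3885 (spleen), and 344 and 512 (tumors). Their median depths were 4353 and 5486, 1374 and 1686, and 13497 and 9580 UMIs. Splenic cells were thus the shallowest, and a splenic cell without a CD8 UMI is weak evidence that it lacked CD8. Of the barcodes, 2 occurred in both spleen libraries, and 0 were shared by any other pair of libraries.

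Pdcd1 (ENSMUSG00000026285, chromosome 1, 93966027 to 93980312, minus strand), the gene that the labels describe as deleted, had 9 and 116 UMIs in the thymic cells with CD8 RNA, 1 and 89 UMIs in the splenic ones, and 702 and 799 UMIs in those of the tumors. Scaled to the total UMIs of the summed cells (CPM), this was 2.46 and 9.16 CPM in the thymus, 0.724 and 12.2 CPM in the spleen, and 105 and 113 CPM in the tumors. In thymus and spleen the libraries labelled Pdcd1 cKO thus held more of this RNA, and in the tumors the libraries were close to equal, which is not what the labels describe. The thymic cells with CD8 RNA include 349 and 797 with Dntt, a gene of immature thymocytes, so this class may include cells from before selection. The files do not hold the part of the gene from which a UMI came, so RNA of a deleted allele was not tested. By the study's account, flow cytometry showed the loss of the PD-1 protein in CD8 T cells of this model, and the files hold no protein values for these libraries. Since the RNA does not tell, libraries are named by label, and no difference between labels is read as an effect of losing Pdcd1. The log2 ratio of the libraries, Pdcd1 cKO over Pdcd1fl/fl, was 1.90 (0.92 to 3.06) in the thymus, 4.07 (1.55 to 9.39) in the spleen and 0.10 (-0.047 to 0.25) in the tumors, where it was 0.26 (0.11 to 0.41) by the median of ratios. Intervals here and below are exact 95% intervals that cover counting error only. In the tumors the ratio became -0.30 (-0.45 to -0.15) once cells with markers of other lineages, described next, were left out.

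CD8 RNA, the marker of the labelled cell type, was found in 55.2% and 66.5% of the filtered thymic cells, 58.4% and 78.8% of the splenic cells and 75.4% and 91.3% of the tumor cells, shares that also depend on depth. The split fixes the presence of Cd8a and Cd8b1 in these cells, so T cell markers that it did not use were read as well. Summed over 7 of these, cells with CD8 RNA had 4617 and 4399.6 CPM in the thymus, 3702 and 4498 CPM in the spleen, and 2219 and 2994 CPM in the tumors, with none at 0 and Trbc2 or Klf2 most abundant. Cells without CD8 RNA had 4041 and 3774 CPM in the thymus, 3474 and 4308 CPM in the spleen, and 292 and 496 CPM in the tumors. The sums were thus far apart between the classes only in the tumors. In the cells with CD8 RNA, Cd4 was at 1.37 and 3.40 CPM in the thymus, 0.724 and 2.87 CPM in the spleen, and 1.35 and 1.55 CPM in the tumors. CD4 T cells were thus scarce among these cells. Markers of gamma delta T cells summed in them to 396 and 286 CPM in the thymus, 10.1 and 34.5 CPM in the spleen, and 4.50 and 12.9 CPM in the tumors. The tumor libraries also held cells of other lineages. A cell was counted as another lineage when it had at least 3 markers of that lineage and these made up at least 0.2% of its UMIs, a rule set after the counts had been seen. By this rule other lineages made up 19.5% and 10.5% of the tumor cells with CD8 RNA, and 83.9% and 67.3% of those without. They were mostly melanoma cells, 141 and 59 in all, with 19 and 29 macrophages or monocytes. In the thymus and the spleen the rule found 4 and 6 cells and 0 and 7 cells. Summed over the 6 melanoma markers, tumor cells with CD8 RNA had 6974 and 3968 CPM, with Dct (2609.9 CPM) and Pmel (1410.3 CPM) most abundant and none at 0. The 7 macrophage markers summed to 74.4 and 486 CPM, led by Lyz2 with none at 0. The tests of tumor cells below are therefore given with all filtered cells and again without the other lineages.

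Few splenic cells met the rule, but the splenic libraries differed in B cell RNA. Igkc, an antibody light chain gene, stood at 67.4 and 897 CPM in the cells with CD8 RNA and at 107 and 4355 CPM in those without. Ms4a1 was at 0 in the library labelled Pdcd1fl/fl. The 6 granulocyte markers summed to 0 and 83.6 CPM with CD8 RNA, led by Mpo, with all of them at 0 in the first library and S100a8 and S100a9 at 0 in the second. The part of this RNA in the splenic ratios between labels was not tested.

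The CD3 delta, epsilon and gamma chains pair with each other and flank the receptor's alpha and beta chains. In cells with CD8 RNA, Cd3d (ENSMUSG00000032094, chromosome 9, 44893083 to 44899173, plus strand of GRCm39) was found at 777 and 763 CPM in the thymus, 1002 and 988 CPM in the spleen, and 708 and 1107 CPM in the tumors. Cd3e (ENSMUSG00000032093, chromosome 9, 44910037 to 44920925, minus strand) was read at 300.4 and 284 CPM in the thymus, 228 and 351 CPM in the spleen, and 172 and 291 CPM in the tumors. For Cd3g (ENSMUSG00000002033, chromosome 9, 44880870 to 44891735, minus strand) the values were 972 and 960.0 CPM in the thymus, 624 and 922 CPM in the spleen, and 391 and 762 CPM in the tumors. In each of these genes the tumor library labelled Pdcd1fl/fl was the lowest of all 6 libraries, while the tumor library labelled Pdcd1 cKO fell among or above the thymus and spleen libraries. Cd247 (ENSMUSG00000005763, chromosome 1, 165616250 to 165704846, plus strand) encodes the zeta chain, which carries most of the ITAM motifs of the complex, and was at 214 and 224 CPM in the thymus, 205 and 220.0 CPM in the spleen, and 42.7 and 83.5 CPM in the tumors. Its tumor values lay below every thymus and spleen value, whereas the thymus and spleen libraries overlapped within their counting intervals.

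Tissues were compared by edgeR's quasi-likelihood test on 1 sum per library of the cells with CD8 RNA, with the label as a term, and p-values were adjusted by Benjamini–Hochberg over all tested genes. The fit left 2 residual degrees of freedom and borrowed 17.3 from the other genes, so its p-values lean on a spread shared across genes. Its TMM scaling places tumor over thymus 0.49 log2 and tumor over spleen 0.38 log2 above the ratio of CPM values, and 0.87 and 0.73 above it once other lineages are left out. Fold changes are therefore not the ratios of the CPM values, and the same fits were run with total UMIs as the scaling, an alternative chosen after the values had been seen. Which scaling is closer to the truth was not tested. Tumor over thymus, Cd247 had a log2 fold change of -1.34 ± 0.33 (SE, 2 libraries a tissue; adjusted p 0.00215), lower in both tumor libraries. Against the spleen it was -1.42 ± 0.33 (adjusted p 0.00147). Without the tumor library labelled Pdcd1fl/fl these calls were lost, with log2 fold changes of -0.89 and -0.92. They were also lost without the other lineages, at -0.40 ± 0.27 and -0.49 ± 0.27 (adjusted p 0.240 and 0.154). In cells thinned to 1000 UMIs neither was called (-1.01 and -0.79). Thinning also redrew the class, since it leaves many cells without a CD8 UMI: 241 and 911 thymic, 700 and 3108 splenic and 137 and 266 tumor cells kept CD8 RNA. The thinned fits were therefore run again with each cell kept in its class, an alternative chosen after the values had been seen. With the classes kept Cd247 was called against the thymus (-0.90) and not against the spleen (-0.85). Both were called with total UMIs as the scaling, at -1.84 ± 0.35 and -1.80 ± 0.35 with all cells and -1.27 ± 0.31 and -1.22 ± 0.31 without the other lineages. With all cells Cd3d, Cd3e and Cd3g were not called against the spleen (0.22, 0.053 and -0.072) or against the thymus (0.71, 0.11 and -0.32). Cd3d was called against the thymus by DESeq2 (0.79), with at least 2 CD8 UMIs per cell (1.09) and thinned (1.23, or 1.25 with the classes kept), as well as without the other lineages.

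Leaving out the other lineages raised the CD3 chains in both tumor libraries. Cd3d then stood at 1240.0 and 1478 CPM in the tumor cells with CD8 RNA, Cd3e at 302 and 388 CPM and Cd3g at 691 and 1021 CPM. Both Cd3d values were above the 4 thymus and spleen values, whereas those of Cd3e and Cd3g overlapped them. By edgeR's quasi-likelihood test, Cd3d was called higher in tumor than in spleen (1.17 ± 0.30, adjusted p 0.00760) and than in thymus (1.68 ± 0.30, adjusted p 0.00109). Cd3e was called as well, at 1.00 ± 0.28 against the spleen and 1.09 ± 0.28 against the thymus (adjusted p 0.0118 and 0.00736). Cd3g was called against the spleen (0.87 ± 0.29, adjusted p 0.0288) but not against the thymus (0.66 ± 0.29, adjusted p 0.0822), and its sign changed from the fit with all cells. Most of these calls depend on the scaling. With total UMIs Cd3d was still called against the thymus (0.81 ± 0.30) but not against the spleen (0.44 ± 0.30). Cd3e (0.22 against the thymus and 0.26 against the spleen) and Cd3g (-0.21 and 0.14) were not called at all. Cd247 stood at 73.7 and 111 CPM without the other lineages, which was still below the lowest thymus or spleen value.

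**Figure D1:**
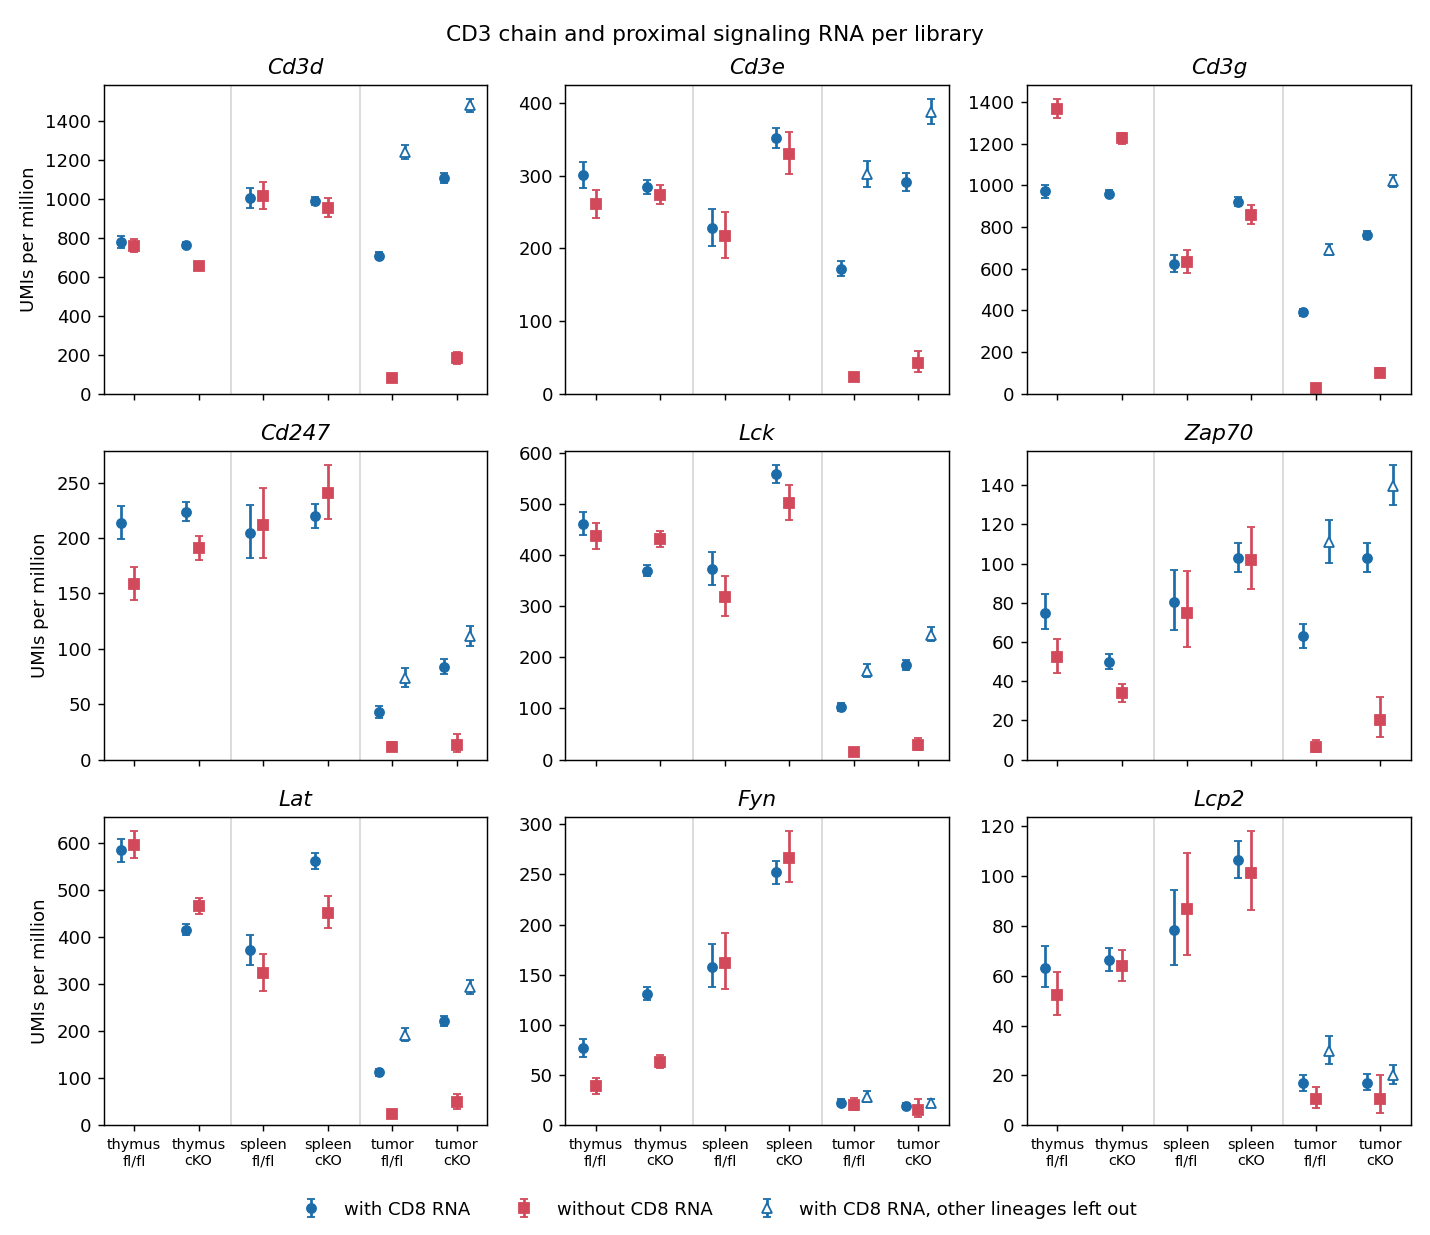
Level of each of the 9 genes in CPM (vertical axes, from 0) in the 6 libraries (horizontal axis), with exact 95% Poisson intervals that cover counting error only. Filled circles are cells with CD8 RNA, squares cells without, and open triangles the tumor cells with CD8 RNA after other lineages were left out; Cd247, Lck, Lat, Fyn and Lcp2 lie lowest in the tumors in each of these classes.

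LCK and FYN are the Src family kinases of T cells: LCK rides on the CD8 coreceptor and starts the phosphorylation of the complex, and FYN can act beside it. Lck (ENSMUSG00000000409, chromosome 4, 129442137 to 129467434, minus strand) reached 461 and 369 CPM in the thymus, 372 and 558 CPM in the spleen, and 102 and 184 CPM in the tumors in cells with CD8 RNA. Fyn (ENSMUSG00000019843, chromosome 10, 39244851 to 39442227, plus strand) was at 76.9 and 131 CPM in the thymus, 158 and 252 CPM in the spleen, and 22.6 and 19.2 CPM in the tumors. Both genes were lowest in the tumor libraries, and no tumor value of either overlapped a thymus or spleen value. Fyn also separated the spleen from the thymus, since both splenic values were above both thymic ones.

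For Lck the edgeR quasi-likelihood fit gave a log2 fold change of -1.10 ± 0.34 for tumor over thymus (adjusted p 0.0116) and -1.33 ± 0.34 for tumor over spleen (adjusted p 0.00320). Without the other lineages Lck stood at 174 and 244 CPM in the tumors, still below every other library, and the TMM folds were -0.14 ± 0.29 and -0.42 ± 0.29, neither called (adjusted p 0.704 and 0.247). They were -1.02 ± 0.33 and -1.16 ± 0.33 with total UMIs as the scaling, both called, as they were with all cells (-1.61 and -1.72). Whether Lck is lower once other lineages are left out thus depends on the scaling. By TMM with all cells, the call against the thymus was lost without the thymus library labelled Pdcd1fl/fl (-0.64) or the tumor library with that label (-0.70). It was also lost with at least 2 CD8 UMIs per cell (-0.60), in cells thinned to 1000 UMIs (-0.36, or -0.50 with the classes kept) and without the 5% of cells with the most UMIs (-0.78). Against the spleen the call was lost without the tumor library labelled Pdcd1fl/fl (-0.92) and in thinned cells (-0.58, or -0.75 with the classes kept).

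Fyn had the largest tissue differences of the 9 genes with all filtered cells. Its log2 fold change was -2.85 ± 0.34 for tumor over spleen (edgeR quasi-likelihood, adjusted p 1.36e-06) and -1.77 ± 0.33 for tumor over thymus (adjusted p 0.000187). Without the other lineages Fyn stood at 28.2 and 22.0 CPM, and both differences were still called, at -2.24 ± 0.35 (adjusted p 0.000404) and -1.14 ± 0.34 (adjusted p 0.0177). These 2 Fyn calls were made under every alternative tried, including each library left out in turn, cells thinned to equal depth with either way of drawing the classes, and total UMIs as the scaling (-3.23 and -2.25). Markers of immature thymocytes summed to 541 and 367 CPM in the thymus and 3.62 and 6.01 CPM in the spleen. Those of cycling cells summed to 1402 and 771 CPM and to 64.5 and 44.5 CPM. Their part in the next difference was not tested. Spleen over thymus, Fyn was the only one of the 9 genes called, at 1.08 ± 0.31 (adjusted p 0.0239), higher in both splenic libraries. That call was lost without the thymus library labelled Pdcd1fl/fl (0.74), without the spleen library labelled Pdcd1fl/fl (1.15) and without the spleen library labelled Pdcd1 cKO (0.97). It was also lost in cells thinned to 1000 UMIs (0.40, or 0.82 with the classes kept), with at least 2 CD8 UMIs (0.88), without the 5% of cells with the most UMIs (0.86), with no label term (1.06) and with total UMIs as the scaling (0.99).

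Zap70 (ENSMUSG00000026117, chromosome 1, 36800837 to 36821905, plus strand) reached 75.0 and 49.8 CPM in the thymus, 80.4 and 103 CPM in the spleen, and 62.8 and 103 CPM in the tumors in cells with CD8 RNA. Unlike the other kinases it was not low in the tumors: the tumor values overlapped those of the other libraries, and the thymus library labelled Pdcd1 cKO was the lowest. Tumor over thymus, the log2 fold change was 0.89 ± 0.32 (edgeR quasi-likelihood, adjusted p 0.0263). The call was lost without the thymus library labelled Pdcd1 cKO (0.39), the spleen library labelled Pdcd1fl/fl (0.74) or the tumor library labelled Pdcd1 cKO (0.30). Against the spleen it was 0.24 ± 0.32 and not called (adjusted p 0.562). Without the other lineages Zap70 reached 111 and 139.6 CPM in the tumors, above every thymus and spleen value. Both differences were then called, at 1.89 ± 0.29 against the thymus (adjusted p 0.000393) and 1.17 ± 0.28 against the spleen (adjusted p 0.00550). With at least 2 CD8 UMIs per cell and all lineages the latter was called too (0.78), but not in thinned cells (0.84, or 0.75 with the classes kept). Neither was called with total UMIs as the scaling and all cells (0.39 against the thymus and -0.16 against the spleen). Leaving out the other lineages, that scaling kept the call against the thymus (1.01 ± 0.33) and not the one against the spleen (0.44 ± 0.33). Spleen over thymus, Zap70 was not called (0.66 ± 0.32, adjusted p 0.191).

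LAT is the membrane adaptor that ZAP-70 phosphorylates, and Lcp2 encodes SLP-76, the cytosolic adaptor that joins it. Lat (ENSMUSG00000030742, chromosome 7, 125962996 to 125968810, minus strand) reached 585 and 416 CPM in the thymus, 372 and 561 CPM in the spleen, and 112 and 222 CPM in the tumors in cells with CD8 RNA. Lcp2 (ENSMUSG00000002699, chromosome 11, 33996920 to 34042426, plus strand) was at 63.2 and 66.3 CPM in the thymus, 78.2 and 106 CPM in the spleen, and 16.9 and 17.1 CPM in the tumors. For both adaptors the tumor values lay below all 4 values of the thymus and spleen, and those 4 did not separate by tissue for Lat. The log2 fold change of Lat was -1.16 ± 0.36 for tumor over thymus and -1.11 ± 0.36 for tumor over spleen (edgeR quasi-likelihood, adjusted p 0.0120 and 0.0142). Without the thymus library labelled Pdcd1fl/fl the first became -0.57, and without the tumor library with that label the 2 became -0.65 and -0.62, none of them called. Leaving out the spleen library labelled Pdcd1 cKO also ended the call against the spleen (-1.03). Neither was called with at least 2 CD8 UMIs per cell (-0.71 and -0.70), in cells thinned to 1000 UMIs (-0.60 and -0.69, or -0.62 and -0.73 with the classes kept) or without the 5% of cells with the most UMIs (-0.81 and -0.78). Without the other lineages Lat stood at 193 and 295 CPM in the tumors, still the lowest values, and neither difference was called by TMM (-0.20 ± 0.31 and -0.21 ± 0.31). Both were called with total UMIs as the scaling, without the other lineages (-1.08 ± 0.35 and -0.94 ± 0.35) and with them (-1.67 and -1.50).

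Lcp2 had a log2 fold change of -1.43 ± 0.28 for tumor over thymus (edgeR quasi-likelihood, adjusted p 0.000390) and -2.04 ± 0.29 for tumor over spleen (adjusted p 1.24e-05). No library left out ended either call. Without the other lineages Lcp2 stood at 29.9 and 20.1 CPM, and the difference was called against the spleen (-1.17 ± 0.31, adjusted p 0.00877) but not against the thymus (-0.52 ± 0.30, adjusted p 0.173). After thinning neither was called (-0.94 and -1.15), but with the classes kept that against the spleen was (-1.18) and that against the thymus was not (-0.87). Scaled by total UMIs, both were called without the other lineages (-1.38 ± 0.33 and -1.91 ± 0.34).

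**Figure D2:**
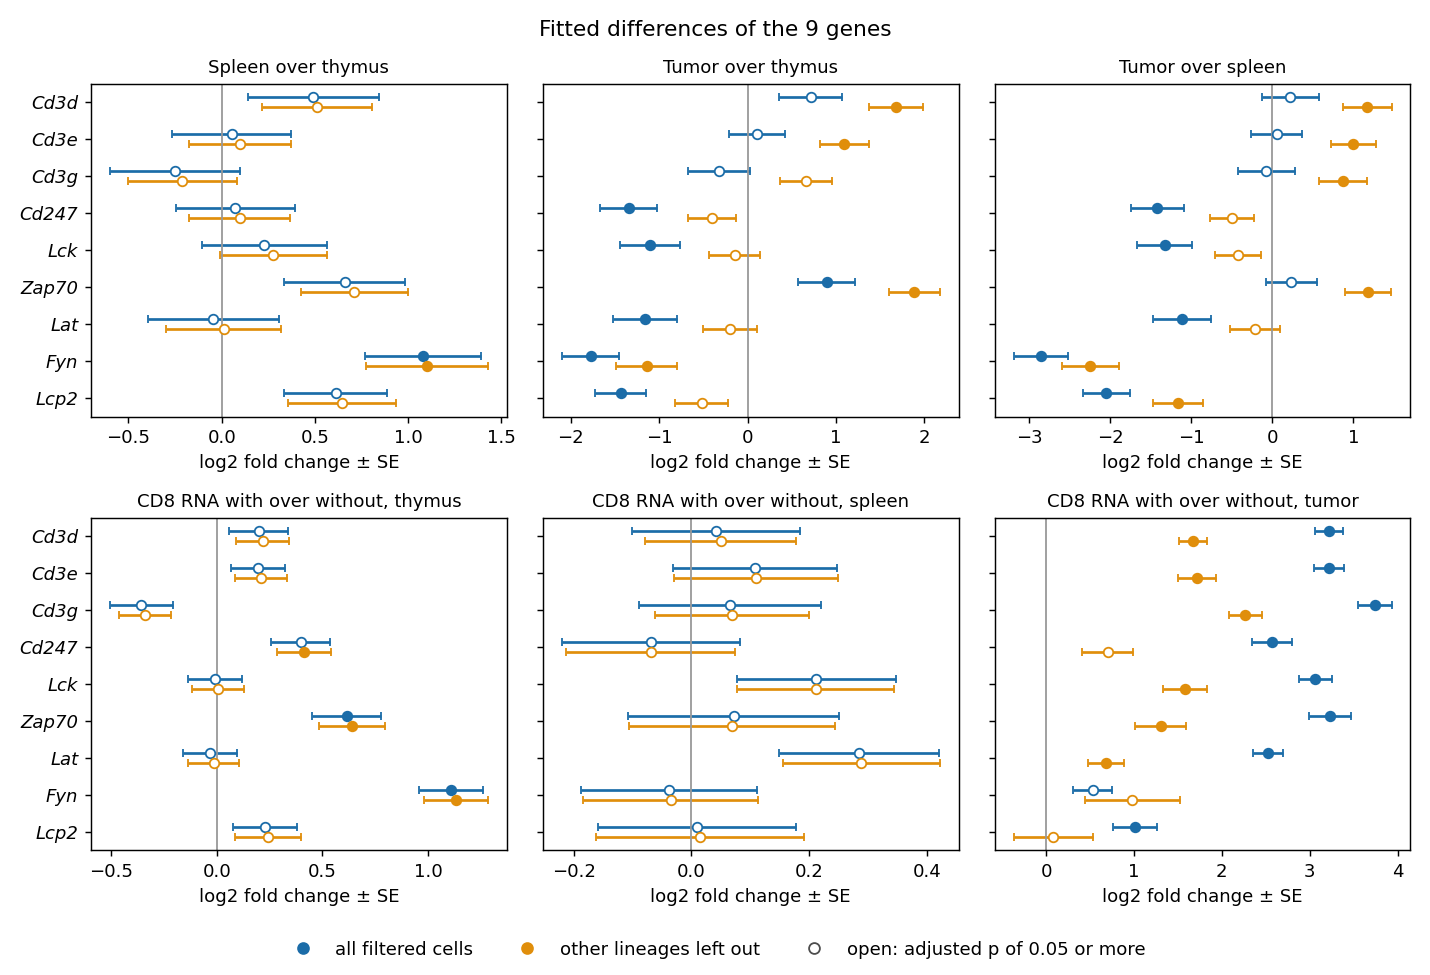
Log2 fold changes with their SE (horizontal axes) of the 9 genes between tissues (upper panels, cells with CD8 RNA, 6 sums) and between cells with and without CD8 RNA (lower panels, 12 sums), from edgeR's quasi-likelihood fit with TMM scaling, with all filtered cells (blue) and without other lineages (orange). Open symbols have an adjusted p of 0.05 or more; Fyn is lower in the tumors with a filled symbol in both fits, while in the upper panels Cd3d and Cd3e are filled only in the fit without other lineages.

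All 9 genes passed the filter on low counts in every test. Spleen over thymus, 1 of them was called (Fyn, higher), beside 14.9% of all 14300 tested genes. Tumor over thymus, 6 were called, 1 higher and 5 lower, beside 49.9% of all genes. Tumor over spleen, 5 were called, all lower, beside 49% of all genes. The median log2 fold change of the 9 genes was 0.23, -1.10 and -1.11 in these comparisons. Over all tested genes the median was -0.025, -0.0097 and 0.15. A tissue difference was thus common among all genes, and the share of members called in the tumor comparisons was near that background. Without the other lineages 4 members were called between tumor and thymus (3 higher, 1 lower), beside 47.9% of all genes. Of these, 2 (Zap70 and Fyn) were also called with all cells. Between tumor and spleen 6 were called (4 higher, 2 lower), beside 48.4% of all genes, and 2 of them (Fyn and Lcp2) were also called with all cells. In that fit the members' medians were -0.14 and -0.21, and those of all genes -0.11 and 0.034. By TMM, only Fyn was called lower in the tumors in both comparisons of both fits. Scaled by total UMIs, Cd247, Lck, Lat, Fyn and Lcp2 were called lower in both comparisons, with all cells (beside 50.9% of all genes against the thymus and 47% against the spleen) and without the other lineages (beside 57% and 50.9%). In the latter fit 2 were higher than in the thymus (Cd3d and Zap70) and 0 than in the spleen, and the members' medians were -1.02 and -0.94 beside -0.97 and -0.71 for all genes.

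Whether the labels differ can be tested only across the 3 tissues together, with the 3 pairs of libraries as replicates. None of the 9 genes was called in that edgeR quasi-likelihood test, beside 0.322% of all genes, and 0 by DESeq2. At an unadjusted p under 0.05 the count was also 0, beside 945 of all 14300 genes. The fitted log2 fold changes of all 9 were positive, library labelled Pdcd1 cKO over Pdcd1fl/fl, with a median of 0.40 beside -0.027 for all genes. Their median was 0.22 without the other lineages, beside -0.013, and Cd3d went from 0.23 to 0.033. The values of Zap70 and Lcp2 changed sign when the other lineages were left out (-0.0054 and -0.034), and that of Zap70 also without either tumor library (-0.11 and -0.098). That of Cd3d became -0.0097 without the tumor library labelled Pdcd1fl/fl.

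Within a tissue each label had 1 library, so the ratios between labels carry no test. Scaling by total UMIs moved the median of all genes by -0.18 log2 in the thymus, 0.16 in the spleen and -0.14 in the tumors, and each ratio is to be read against that shift. In the thymus Lck had a log2 ratio of -0.32 (-0.40 to -0.24), Zap70 of -0.59 (-0.80 to -0.38) and Lat of -0.49 (-0.56 to -0.42), all lower in the library labelled Pdcd1 cKO under each scaling. Fyn went the other way, at 0.77 (0.59 to 0.96). Cd3d, Cd3e and Cd3g had thymic ratios of -0.027, -0.080 and -0.017, which turned positive (0.19, 0.13 and 0.20) when scaled by the median of ratios. Cd247 and Lcp2, at 0.068 and 0.068, had counting intervals that included 0. By the median of ratios they were 0.28 (0.17 to 0.40) and 0.28 (0.071 to 0.50), and without mitochondrial, ribosomal and Malat1 UMIs 0.27 and 0.27, with intervals above 0. Whether the CD3 chains differed between the thymic libraries thus depends on the scaling, while Lck, Zap70, Lat and Fyn kept their direction under each. The thymic libraries also differed in RNA of cycling and immature cells: in the same sums the 6 cycling markers came to 1402 and 771 CPM, led by Pclaf, and the 5 markers of immature thymocytes to 541 and 367 CPM, led by Dntt, with none at 0. The part of this difference in the thymic ratios was not tested.

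In the spleen the ratio was 0.59 (0.45 to 0.72) for Lck, 0.59 (0.46 to 0.73) for Lat and 0.67 (0.47 to 0.88) for Fyn. It was 0.62 (0.45 to 0.80) for Cd3e and 0.56 (0.46 to 0.67) for Cd3g. Under the label Pdcd1 cKO those 5 were the higher ones by each scaling, and so was Lcp2 (0.44). Zap70 (0.35 (0.064 to 0.65)) was higher as well, but its intervals included 0 under the 2 other scalings, at 0.25 (-0.041 to 0.55) by the median of ratios and 0.22 (-0.066 to 0.52) without mitochondrial, ribosomal and Malat1 UMIs. Cd3d (-0.021 (-0.10 to 0.063)) had an interval that included 0, but by the same 2 scalings it was lower, at -0.13 (-0.21 to -0.042) and -0.15 (-0.23 to -0.067). Cd247 (0.10 (-0.081 to 0.29)) had intervals that included 0 under each scaling. In the tumors, 7 of the 9 genes had the higher level under the label Pdcd1 cKO, with ratios from 0.64 for Cd3d to 0.98 for Lat. The exceptions were Fyn (-0.24 (-0.58 to 0.11)) and Lcp2 (0.013 (-0.37 to 0.40)). Other lineages took a larger share of the library labelled Pdcd1fl/fl, and leaving them out lowered the ratios of those 7 genes to between 0.25 for Cd3d and 0.61 for Lat. Lcp2 then stood at -0.57 (-0.97 to -0.17) and Fyn at -0.36 (-0.75 to 0.037), so the adaptor Lcp2 went opposite to Lat. Thinned to 1000 UMIs, with all lineages and each cell kept in its class, the tumor intervals of those 7 genes lay above 0, while those of Fyn and Lcp2 included it. When the class was redrawn from the thinned UMIs, which left 137 and 266 tumor cells, the intervals of Cd3e, Cd3g, Cd247, Lck and Lat included 0 as well.

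Cells with and without CD8 RNA were compared inside each library, on 12 sums with the library as a block and 1 effect per tissue. In the thymus, cells without CD8 RNA had a median of 4394.5 and 5251 UMIs, near the depth of the cells with it. Fyn stood at 38.8 and 63.4 CPM without CD8 RNA and 76.9 and 131 CPM with it. Zap70 stood at 52.3 and 33.8 CPM without and 75.0 and 49.8 CPM with CD8 RNA. Both genes were higher with CD8 RNA in both thymus libraries. The log2 fold change was 1.11 ± 0.15 for Fyn and 0.62 ± 0.16 for Zap70 (edgeR quasi-likelihood, adjusted p 9.25e-05 and 0.0348). These were the 2 members called in the thymus, beside 3.96% of all genes. The Fyn call was lost without the library labelled Pdcd1 cKO (0.95), and the Zap70 call without either thymus library (0.76 and 0.49). Zap70 was not called with total UMIs as the scaling (0.54) or in cells thinned to 1000 UMIs, with the classes redrawn (0.55) or kept (0.77). Cd3e was called in thinned cells with the classes redrawn (0.44, beside 7.08% of all genes) but not with them kept (0.23), both fits with infinite prior degrees of freedom. By DESeq2 1 member was called, Fyn. Cd3g was lower with CD8 RNA in both libraries, 972 and 960.0 CPM against 1369 and 1227 CPM without, but was not called (-0.36 ± 0.15, adjusted p 0.274), except with total UMIs as the scaling and no other lineages (-0.42, infinite prior degrees of freedom). Cd247 was not called either (0.40 ± 0.14, adjusted p 0.158), but it was once the few cells of other lineages were left out (0.41 ± 0.13) or either tumor library was (0.44 and 0.44). Those 3 fits treated the spread of each gene as known, with infinite prior degrees of freedom. It was also called with at least 2 CD8 UMIs per cell (0.50), where the prior degrees of freedom were 15.9.

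Splenic cells without CD8 RNA had a median of 1252 and 1381 UMIs. At that depth a missing CD8 UMI is weak evidence that CD8 was absent. The values in the spleen differed little by CD8 RNA. Cells without it had Cd3d at 1014 and 953 CPM, Lck at 318 and 502 CPM and Fyn at 162 and 267 CPM, close to the cells with it in each library. None of the 9 genes was called by edgeR's quasi-likelihood test, beside 0.118% of all genes, and 0 by DESeq2. At an unadjusted p under 0.05 the count was 1 (Lat, 0.29 ± 0.14), beside 483 of all 13541 genes. The difference between the spleen and thymus effects was called for Fyn (-1.15 ± 0.21, adjusted p 0.00650), 1 of the 9 genes beside 1.11% of all. Without the thymus or the spleen library labelled Pdcd1 cKO it was -0.99 and -1.07 and was not called. For Zap70 the same difference was -0.54 ± 0.24 and was not called (adjusted p 0.586).

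In the tumors the cells without CD8 RNA, 112 and 49 in number, were low in nearly every member. Cd3d stood at 82.9 and 183 CPM there, Cd3g at 27.6 and 99.0 CPM and Lck at 15.5 and 28.3 CPM. In both libraries all 3 were several times higher in the cells with CD8 RNA. By edgeR's quasi-likelihood test 8 of the 9 genes were higher with CD8 RNA, beside 16.3% of all genes called. The largest log2 fold change was that of Cd3g, 3.74 ± 0.19 (adjusted p 3.60e-11). Fyn was the exception, at 20.6 and 15.3 CPM without and 22.6 and 19.2 CPM with CD8 RNA (0.53 ± 0.22, adjusted p 0.116). Lcp2 was called (1.01 ± 0.25, adjusted p 0.00832), but not without the tumor library labelled Pdcd1fl/fl (1.14). The effect was larger in the tumors than in the thymus for 7 genes, beside 7.07% of all genes called, and than in the spleen for 7 genes, beside 4.86%. Fyn and Lcp2 were not called in either of these 2 differences with all filtered cells. With total UMIs as the scaling the same 7 genes were called in both differences (beside 6.13% and 4.76% of all genes), and Lcp2 lost its call in the tumors (0.67).

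These effects changed with the rule for CD8 RNA. With at least 2 CD8 UMIs per cell all 9 genes were called in the tumors, beside 28.8% of all genes, with Fyn at 0.80. Lcp2 was then called in both differences (1.18 and 1.38, beside 14.1% and 9.9%). Thinned to 1000 UMIs with each cell kept in its class, the tumor effect was called for 7 genes, all but Fyn and Lcp2, beside 9.59% of all genes, with Cd3d at 3.35 and Cd3e at 3.61. The difference from the spleen was then called for the same genes (beside 5.65%), and that from the thymus for 6, without Zap70 (beside 5.56%). The tumor cells without CD8 RNA then held 19 and 13 UMIs of Cd3d but only 1 and 1 of Lck and 2 and 2 of Zap70, so the sizes of these effects are uncertain. When the classes were redrawn from the thinned UMIs, the cells without CD8 RNA rose to 319 and 295 in the tumors, most of them cells that had CD8 RNA before thinning. The effect was then smaller and called for 4 genes, Cd3d (0.89), Cd3e (1.24), Cd3g (1.07) and Lck (0.86), beside 3.34% of all genes. In that fit the difference from the thymus was called for Cd3g alone (1.12, beside 1.74%), and that from the spleen for Cd3d (0.85), Cd3e (1.13) and Cd3g (0.96), beside 1.09%. Both thinned fits had infinite prior degrees of freedom.

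Other lineages made up most tumor cells without CD8 RNA, and without them only 18 and 16 such cells remained. Cd3d stood at 656 and 739 CPM in them, Cd3g at 222 and 373 CPM and Cd4 at 56.8 and 29.3 CPM. Cd3d and Cd3g were thus read in these few cells, at lower levels than in the cells with CD8 RNA. In that fit 6 of the 9 genes were called higher with CD8 RNA, beside 12.2% of all genes, and all 6 had also been called with all cells. The log2 fold change of Cd3g was 2.27 ± 0.19, while Cd247 (0.70 ± 0.29) and Lcp2 (0.081 ± 0.45) were not called. In this fit edgeR set the prior degrees of freedom to infinity, which treats the spread of each gene as known, so its adjusted p-values are not printed for the tumors. The median of all genes stood at 0.79 in this fit, so the fold changes are to be read against that shift. The difference from the thymus effect was called for 5 genes (beside 9.38% of all) and that from the spleen effect for 5 (beside 6.34%). With the median of all genes in these differences at 0.79 and 0.79, Cd3d, Cd3e, Cd3g and Lck were called in both, from 1.37 for Lck against the spleen to 2.60 for Cd3g against the thymus. The members' medians were 0.70 and 1.23. The other called gene against the thymus, Lat (0.70), lay below the median of all genes, so its call is not a larger effect than that of most genes. With total UMIs as the scaling the median of all genes was 0.083 in the tumors, and Cd3d, Cd3e, Cd3g and Lck were called there (beside 3.43% of all genes). The differences were then called for the same 4 against the thymus (beside 3.32%) and for Cd3d, Cd3e and Cd3g against the spleen (beside 1.76%).

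Thymic cells were divided further by single marker UMIs, as a description without a test. Il2ra marks early thymocytes before the mature receptor forms, Dntt marks immature thymocytes that still edit receptor joints, and Ccr7 marks cells near exit. Among cells without CD8 RNA, 149 and 411 had Il2ra, and Cd3g stood at 2047 and 1462 CPM in them. In the cells with Dntt but no Il2ra (253 and 308) it stood at 1069 and 989.8 CPM. Cd3g was thus highest in the Il2ra cells in both libraries, and the level in every class with CD8 RNA lay between 924 and 1051 CPM. Trac, the gene of the receptor's alpha chain, was 33.3 and 34.8 CPM in the Il2ra cells and 421 and 526 CPM in the cells with CD8 RNA and Ccr7 but no Dntt (160 and 706). Fyn, like Trac and unlike Cd3g, was lower in the Il2ra cells than in the Ccr7 cells in both libraries. It stood at 28.8 and 54.2 CPM in the Il2ra cells, 49.8 and 90.0 CPM in the CD8 cells with Dntt and 179 and 170.3 CPM in those with Ccr7. Cd247 went from 174 and 188 CPM in the Il2ra cells to 359.6 and 272 CPM in the Ccr7 cells. Cd3d rose as well, from 729 and 659 CPM in CD8 cells with Dntt to 1022 and 965 CPM in those with Ccr7. Lck changed less over the same step, from 462 and 376 CPM to 489.6 and 349.5 CPM, and not in the same direction in the 2 libraries.

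Cells without CD8 RNA, Il2ra or Dntt but with Trdc, the delta chain constant gene, numbered 30 and 50. Cd3g stood at 905 and 592 CPM in them and Zap70 at 76.7 and 83.2 CPM. Zap70 was there above its level in the Il2ra cells, 48.8 and 25.3 CPM, in both libraries. In CD8 cells with neither Dntt nor Ccr7, Fyn was 97.0 CPM (65.5 to 138) under the label Pdcd1fl/fl and 272 CPM (242 to 304) under the label Pdcd1 cKO. This was the widest gap between the labels for Fyn in the 7 thymic classes, whereas the intervals of the 2 libraries overlapped in the Ccr7 cells. Under the label Pdcd1 cKO, Fyn was higher in the CD8 cells with neither gene than in the Ccr7 cells. The share of thymic cells with CD8 RNA that had Ccr7 and no Dntt differed between the libraries too, by the cell numbers above, and its part in the thymic label ratios was not tested.

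**Figure D3:**
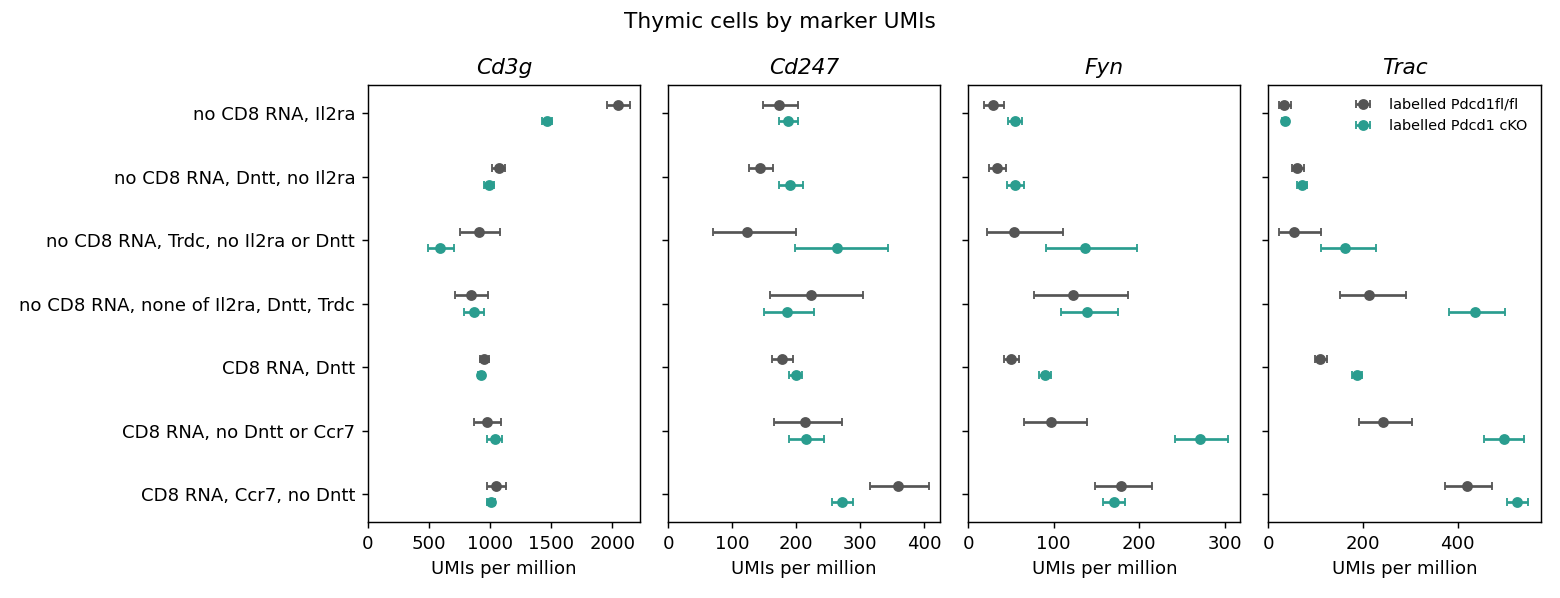
Level in CPM (horizontal axes, from 0) of Cd3g, Cd247, Fyn and Trac in 7 classes of thymic cells set by marker UMIs (vertical axis), with exact 95% Poisson intervals that cover counting error only. Grey points are the library labelled Pdcd1fl/fl and green points the library labelled Pdcd1 cKO; Cd3g is highest in the class with Il2ra, while Fyn and Trac are low there.

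In the tumors, cells with CD8 RNA and no other lineage were split by Mki67 or Top2a, genes of cycling cells, into 94 and 130 with and 183 and 328 without. Cd3g stood at 662 and 874 CPM in the first and 713 and 1102 CPM in the second. Cd3d was 1150.2 and 1353 CPM and 1308 and 1546 CPM. Both chains were thus lower in the cells with a cycling gene. Fyn, at 30.7 and 21.8 CPM and 26.4 and 22.1 CPM, and Zap70, at 119.7 and 142 CPM and 104 and 138 CPM, did not share that drop.

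The share of cells with a UMI of any of the 4 CD3 chains was counted after thinning every cell to 1000 UMIs, with Clopper–Pearson intervals. Among thymic cells with CD8 RNA it was 85.7% (82.7 to 88.5) and 88.0% (86.3 to 89.5). In the spleen it was 84.2% (81.6 to 86.6) and 89.2% (88.2 to 90.2). The tumor cells with CD8 RNA and no other lineage had 88.8% (84.5 to 92.3) and 92.8% (90.0 to 95.0). The tumor library labelled Pdcd1 cKO lay above both thymus libraries and the spleen library labelled Pdcd1fl/fl, and all shares were near the top of the scale, where differences are hard to see. Unthinned, the shares of the thymus were 99.8% and 99.9%, those of the spleen 91.7% and 96.4%, and those of the tumors 100% and 100%. The background is read from the other-lineage cells of the tumors, which should make no CD3 of their own. There the share was 8.07% (4.37 to 13.4) and 14.9% (8.20 to 24.2) thinned, and 78.9% and 94.3% unthinned, at median depths of 29100 and 27849 UMIs against 11084 and 9210 in the tumor CD8 cells. At the depth of the files a single CD3 UMI was thus found in most cells of other lineages and does not set T cells apart from them. No doublets were removed, and 67 of 161 and 54 of 87 of these cells had CD8 RNA. Where the CD3 UMIs of the other-lineage cells came from, doublets with T cells or another source, was not tested.

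Fyn was read in 2.17% (0.799 to 4.65) and 3.28% (1.84 to 5.34) of thinned tumor cells with CD8 RNA and no other lineage, and in 29.6% and 18.8% unthinned. In the other-lineage cells the thinned shares were 0.621% (0.0157 to 3.41) and 2.30% (0.280 to 8.06), and the unthinned ones 42.9% and 27.6%. By share, Fyn in tumor CD8 cells could not be told from its level in other lineages at this depth. By CPM it was higher, at 28.2 CPM (23.1 to 34.2) against 17.7 CPM (14.4 to 21.6) under the label Pdcd1fl/fl and 22.0 CPM (18.2 to 26.4) against 12.6 CPM (8.70 to 17.8) under the label Pdcd1 cKO. In the spleen the thinned Fyn shares were 11.9% (9.85 to 14.3) and 19.97% (18.7 to 21.3), above both tumor intervals. Zap70 had thinned shares of 9.39% (6.22 to 13.5) and 14.6% (11.5 to 18.2) in the tumor CD8 cells and of 0.621% (0.0157 to 3.41) and 1.15% (0.0291 to 6.24) in the other lineages. Its unthinned shares were 66.8% and 73.1% in the tumor CD8 cells and 5.59% and 8.05% in the other lineages. Zap70 was thus found in a larger share of the tumor CD8 cells than of the other lineages at both depths. After thinning, most tumor CD8 cells had no Zap70 UMI.

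As a percentage of the tumor CD8 cells without other lineages, the other-lineage cells held 3.13% and 6.07% of the Cd3d level. The percentages were 5.89% and 7.05% for Lck and 2.74% and 5.06% for Cd8b1. For Fyn they were 62.8% and 57.4%, and for Lcp2 14.1% and 40.1%. The CD3 chains ranged from 1.77% (Cd3g) to 4.96% (Cd247) in the first library and from 5.18% (Cd3g) to 6.07% (Cd3d) in the second. They and Lck thus stood within a few points of the Cd8b1 percentages, whereas Fyn and Lcp2 stood far above them. Among the marker-defined cells, Fyn was 16.3 and 10.03 CPM in melanoma cells, and Lcp2 was 103 and 48.0 CPM in macrophages or monocytes, above its level in any tumor CD8 sum.

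Other genes of the pathway were taken from 4 lists. Their tests use TMM, so the shifts in scaling given above hold for them too. Of the Tec kinases, adaptors and effectors that act beside or after the members, 19 of 20 listed were tested. Tumor over spleen, 0 higher and 14 lower were called by edgeR's quasi-likelihood test, with a median log2 fold change of -2.28, and tumor over thymus 1 higher and 14 lower, with a median of -2.12. Of all genes 49% and 49.9% were called in these comparisons. Spleen over thymus the counts were 3 higher and 0 lower (median 0.43), beside 14.9% of all genes. The counts without the other lineages were 2 higher and 14 lower for tumor over spleen (median -1.62, beside 48.4% of all genes) and 2 higher and 12 lower for tumor over thymus (median -1.40, beside 47.9%). Txk, a Tec kinase, was at 57.7 and 59.8 CPM in the thymus, 140.5 and 142 CPM in the spleen, and 4.05 and 6.08 CPM in the tumors, and Rasgrp1, which activates RAS, at 37.2 and 32.7 CPM in the thymus, 40.6 and 46.6 CPM in the spleen, and 2.25 and 3.11 CPM in the tumors. Both were lowest in both tumor libraries, without overlap with the other tissues. Tumor over spleen, their log2 fold changes were -4.42 for Txk and -3.63 for Rasgrp1, and tumor over thymus -3.04 and -3.20, all called. These calls were also made without the other lineages. Sh2d2a, an adaptor that binds LCK, went the other way at 86.5 and 89.9 CPM in the thymus, 165 and 248.8 CPM in the spleen, and 197 and 326 CPM in the tumors, and was called higher against the thymus (2.02, adjusted p 3.79e-05), also without the other lineages.

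Of the 20 genes that restrain the receptor, 1 higher and 15 lower were called between tumor and spleen (median -1.45, beside 49% of all genes). Between tumor and thymus 4 higher and 9 lower were called (median -0.64, beside 49.9%), and between spleen and thymus 9 higher and 1 lower (median 0.71, beside 14.9%). Between tumor and spleen 2 higher and 11 lower were called without the other lineages (median -0.80, beside 48.4%), and between tumor and thymus 4 higher and 5 lower (median 0.19, beside 47.9%), so the median against the thymus changed sign. Pag1, a membrane adaptor that brings the inhibitory kinase CSK to Src kinases, was -3.49 for tumor over thymus, and Dgka, a kinase that removes diacylglycerol, was -3.47 for tumor over spleen. Sla2, an adaptor that lowers receptor levels, was 2.12 for tumor over spleen and -1.22 for spleen over thymus. The calls against the tumor in these 3 genes were also made without the other lineages. The last call was lost without the thymus library labelled Pdcd1fl/fl (-0.999) or the spleen library labelled Pdcd1 cKO (-1.10), with at least 2 CD8 UMIs per cell (-0.94) and with no label term (-1.15). Cd5 and Cd6, receptors that dampen signaling, were higher in spleen than in thymus (1.51 and 1.42). Their calls were lost without 1 library each, the spleen library labelled Pdcd1 cKO for Cd5 (1.30) and the thymus library labelled Pdcd1fl/fl for Cd6 (1.07). Thinned, neither was called (1.08 and 0.86), though both were with the classes kept.

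Cd8a and Cd8b1 chose the cells, more strictly where cells were shallow, so they are left out of the list of receptor and coreceptor genes. Of the other 6, 2 higher and 1 lower were called between spleen and thymus (beside 14.9% of all genes), 0 higher and 1 lower between tumor and thymus (beside 49.9%), and 0 higher and 2 lower between tumor and spleen (beside 49%), with medians of 0.20, -0.18 and -0.21. The tumor counts without the other lineages were 2 higher and 1 lower against the thymus (beside 47.9%) and 2 higher and 1 lower against the spleen (beside 48.4%), with medians of 0.56 and 0.46. Cd2 (1.45) was called higher in spleen than in thymus, and Trbc1 (-1.03) lower. Neither was called when thinned (0.84 and -0.67), and with the classes kept only Cd2 was (Trbc1 at -0.77). Both calls were lost without the spleen library labelled Pdcd1fl/fl, at 1.26 and -0.95. That of Trbc1 was also lost without the thymus library labelled Pdcd1 cKO (-1.01), the spleen library with that label (-1.13) and either tumor library (-1.06 and -1.01). It did not hold with DESeq2 size factors (-0.96), all barcodes (-1.05), no other lineages (-0.997) or no top 5% of cells by UMIs (-0.98) either. The last list holds 11 genes that fill these roles in B and myeloid cells. Of them 5 higher and 1 lower were called between tumor and thymus (beside 49.9% of all genes), 4 higher and 1 lower between tumor and spleen (beside 49%), and 0 higher and 0 lower between spleen and thymus (beside 14.9%). In the fit without the other lineages 8 were tested, and the tumor counts were 5 higher and 0 lower against the thymus (beside 47.9%) and 4 higher and 1 lower against the spleen (beside 48.4%). Fcer1g, an ITAM chain, stood at 1.64 and 2.61 CPM in the thymus, 0.724 and 3.004 CPM in the spleen, and 21.3 and 179 CPM in the tumors, Tyrobp at 2.46 and 1.34 CPM in the thymus, 6.52 and 6.01 CPM in the spleen, and 15.0 and 85.9 CPM in the tumors and Lat2, a LAT homolog, at 3.56 and 5.69 CPM in the thymus, 4.35 and 2.87 CPM in the spleen, and 5.55 and 30.7 CPM in the tumors. The tumor library labelled Pdcd1 cKO was the highest in all 3. Their log2 fold changes against the spleen were 6.11, 3.41 and 2.86, and against the thymus 5.96, 5.26 and 2.25. All of these calls were also made without the other lineages. Without the tumor library labelled Pdcd1 cKO Tyrobp was 1.18 and Lat2 1.15 against the spleen, and Lat2 0.66 against the thymus, none of them called, and the call of Lat2 against the spleen was also lost without the spleen library labelled Pdcd1 cKO (1.08).

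Between labels over the 3 tissues, Fcer1g (2.64, adjusted p 0.00517) and Lax1, an adaptor that restrains the receptor (1.37, adjusted p 0.0206), were the only genes of the 4 lists called by edgeR's quasi-likelihood test, both higher in the libraries labelled Pdcd1 cKO. Beside 0.322% of all genes, the counts were 0 of 6 receptor genes, 0 of 19 effectors, 1 of 20 restraining genes and 1 of 11 counterparts. Fcer1g was not called without either tumor library (1.06 and 1.11) or without the other lineages (1.497), nor in cells thinned to 1000 UMIs (1.26, or 2.10 with the classes kept). Lax1 stood at 14.8 and 32.9 CPM in the thymus, 34.0 and 87.5 CPM in the spleen, and 2.10 and 6.64 CPM in the tumors, higher in the library labelled Pdcd1 cKO in each tissue, and was not called without the other lineages (1.26) with at least 2 CD8 UMIs per cell (1.19) or with total UMIs as the scaling (1.35).

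Between cells with and without CD8 RNA, Cd8a and Cd8b1 define the split and are left out of every count and median. In the thymus 3 of the 6 other receptor genes, 6 effectors and 6 restraining genes were called higher with CD8 RNA and 0 lower, beside 3.96% of all genes, with medians of 1.16, 0.22 and 0.32. Trac led at 1.85 ± 0.16, adjusted p 5.88e-07, followed by Cd2 at 1.77. In the tumors the counts were 5, 8 and 11, all higher, beside 16.3% of all genes, with medians of 2.25, 0.82 and 1.498. They fell to 3, 4 and 5 higher without the other lineages, with 1 receptor gene lower, beside 12.2% of all genes. Trbc2 was higher by 3.59 ± 0.15, adjusted p 9.53e-12, and was also called without the other lineages. Lax1 had 14 and 47 UMIs in tumor cells with CD8 RNA and 0 in those without in both libraries, so no fold is given. Of the counterparts, Tyrobp (-2.18), Syk (-1.74) and Fcer1g (-1.60) were among those called lower with CD8 RNA in the tumors. Syk lost the call without the tumor library labelled Pdcd1fl/fl (-1.60) and without the other lineages (-2.61). By DESeq2 Tyrobp (-2.35) and Fcer1g (-1.77) were not called.

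Tumor minus thymus, the CD8 effect had 3 higher and 1 lower called among the receptor genes, 5 higher and 0 lower among the effectors and 9 higher and 0 lower among the restraining genes (beside 7.07% of all genes called). Tumor minus spleen, the counts were 5 higher and 0 lower, 6 higher and 0 lower and 10 higher and 0 lower (beside 4.86%). In the fit without the other lineages, with infinite prior degrees of freedom, the receptor genes had 2 higher and 3 lower against the thymus, the effectors 1 higher and 0 lower and the restraining genes 3 higher and 1 lower (beside 9.38%). Against the spleen the 3 lists had 2 higher and 0 lower, 2 higher and 0 lower and 2 higher and 0 lower (beside 6.34%). The effect of CD8 RNA was smaller in the spleen than in the thymus for Trac (-1.74 ± 0.22, adjusted p 0.000315), Cd2 (-1.58), Txk (-1.45) and Prkcq (-1.15). These were the 4 genes of the lists called there, beside 1.11% of all genes. Only Trac was still called without the thymus library labelled Pdcd1 cKO, where the other 3 were -1.06, -1.34 and -1.08, and without the spleen library with that label, where they were -1.37, -1.39 and -1.06. In the tumors the effect was larger than in the thymus for Trbc1 (3.51), Sla2 (3.49) and Trbc2 (3.43) and smaller for Cd4 (-3.58). The Cd4 call was lost without either thymus library (-3.61 and -3.36) or the tumor library labelled Pdcd1fl/fl (-3.47). Against the spleen it was larger for Sh2d2a (3.59), Trbc1 (3.42) and Trbc2 (3.37). The calls of these genes in both differences were also made without the other lineages, though that of Sla2 not with total UMIs as the scaling there (1.02).

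Across the 12 sums, the level of each gene was compared with the mean log2 CPM of the 4 CD3 chains by Pearson's r, as a description over points that share libraries. Among 10842 genes with at least 100 UMIs and a UMI in all 12 sums, those outside the list with the highest r were Thy1 (0.972), Septin1 (0.970), Uqcc3 (0.964), Spn (0.964) and Septin6 (0.963). Within the list, Cd3e (with the other 3 chains, 0.985), Lck (0.980) and Lat (0.967) stood highest. Lcp2 (0.830) and Fyn (0.669) stood lowest. The tumor sums without CD8 RNA stood far below the others in the CD3 chains.

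Cd3g, Cd3d and Cd3e lie in a cluster on chromosome 9, where Cd3d and Cd3g are read away from each other from starts 1355 bases apart in GRCm38.p6. In GRCm39, Cd247 overlaps 7 annotated genes on the other strand, Pou2f1 among them, Fyn 4, Zap70 2, and Cd3e and Lcp2 1 each (Gm48719 and 4930469K13Rik). On the same strand Cd247 overlaps 2 and Cd3e, Lck and Lat 1 each. Whether counting used the strand is not stated, so UMIs of these neighbours could not be told apart from those of the member. The promoters of all 9 genes had entries in RefSeq (GRCm38.p6), 12 windows in all, and their 250 bases before the start were searched on both strands for 5 short motifs chosen after the values had been seen. The ETS core AGGAAG was found in 9 of the 12 windows, of 7 genes, beside 29.5% of 32851 windows. The E-box CACCTG was in 6 (beside 17.2%) and the TCF core CTTTGA in 4 (beside 13.8%). The RUNX core TGTGGT was in 2 (beside 14.0%) and the GATA core AGATAA in 2 (beside 9.99%). A match is a description of letters and not a bound site. The cluster's 3 promoters are shown because the genes lie side by side and encode the chains that pair with each other. They lie at chr9:44980432-44980681 on the minus strand for Cd3g, chr9:44981536-44981785 on the plus strand for Cd3d and chr9:45009612-45009861 on the minus strand for Cd3e, all in GRCm38.p6 and written 5′ to 3′ toward the start. Capitals mark AGGAAG or its reverse complement CTTCCT, and the Cd3g window held neither.
Cd3g: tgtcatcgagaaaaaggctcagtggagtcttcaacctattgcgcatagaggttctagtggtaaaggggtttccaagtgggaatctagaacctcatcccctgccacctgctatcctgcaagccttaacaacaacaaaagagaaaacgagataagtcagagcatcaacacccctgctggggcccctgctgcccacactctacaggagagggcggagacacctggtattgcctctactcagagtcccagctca
Cd3d: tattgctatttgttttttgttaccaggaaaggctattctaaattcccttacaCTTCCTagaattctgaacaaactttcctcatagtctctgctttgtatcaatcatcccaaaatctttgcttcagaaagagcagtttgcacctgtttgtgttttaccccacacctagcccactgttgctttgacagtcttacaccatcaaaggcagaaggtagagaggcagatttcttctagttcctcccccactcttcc
Cd3e: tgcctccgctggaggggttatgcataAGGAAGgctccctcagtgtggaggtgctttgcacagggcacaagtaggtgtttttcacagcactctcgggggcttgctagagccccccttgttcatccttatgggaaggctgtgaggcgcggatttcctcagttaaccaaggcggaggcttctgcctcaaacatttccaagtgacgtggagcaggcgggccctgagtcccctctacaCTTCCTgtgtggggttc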

How the data were processed

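For each of 6 mouse libraries the authors deposited a matrix of raw UMI counts per gene and cell barcode, made with the PIPseq pipeline against GRCm39; their own downstream work used Seurat 4.3.0. The deposited values were whole counts and were used as such. Cells with 500 or more genes, 1000 or more UMIs and no more than 20% of UMIs from the 13 mitochondrial genes were kept, which left 1067 and 2635, 1478 and 4928, and 456 and 561 cells in thymus, spleen and tumor. No doublets were removed; an alternative left out the 5% of cells with the most UMIs.

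UMIs were summed per library and class and compared by edgeR 4.0.16 (quasi-likelihood F-test, TMM scaling, filterByExpr) in R 4.3.3, with tissue and label, or library and tissue by CD8 class, as terms. Benjamini–Hochberg adjustment ran over all tested genes, and a gene was called at an adjusted p under 0.05. DESeq2 1.42.0 served as an alternative. The 2 libraries of a tissue stand in as replicates, all sharing 1 estimate of the spread. The prior degrees of freedom were 17.3 for the tissue fit and 16.7 for the CD8 fit, but infinite in the CD8 fit without other lineages and in each tissue fit with a library left out. Sums, intervals and figures used Python 3.11.15 with pandas 2.3.3, scipy 1.17.1 and matplotlib 3.10.9. Intervals are exact Poisson for CPM, conditional binomial for ratios and Clopper–Pearson for shares, at 95%.

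The named genes are the 9 members, Pdcd1, Cd8a, Cd8b1 and Cd4 as checks, the 4 genes with the largest fold change in each direction per test among those called in the 4 pathway lists (receptor and coreceptors, Tec kinases with adaptors and effectors, genes that restrain the receptor, counterparts of other lineages), and the 5 genes most like the CD3 chains. Some genes of these lists, and a split of splenic CD8 cells by marker genes, are counted or were run but are not reported here. The members and lists were chosen with earlier results of these data known. Cells of other lineages were found by lists of markers, with thresholds set after the counts had been seen. Alternatives were other scalings (total UMIs in the fits was chosen after the values had been seen), no filter on low counts, all barcodes, at least 2 CD8 UMIs, thinning to 1000 UMIs with the CD8 class drawn again from the thinned UMIs or, chosen after the values had been seen, kept from all UMIs, no other lineages, no label term and leaving out each library.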

Additional observations from a re-analysis of the deposited data

Results flagged for a closer look

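The effect of CD8 RNA on 7 of the 9 genes differed between tissues by the test of the difference itself (edgeR quasi-likelihood, adjusted p under 0.05). Of all genes, 7.07% were called for tumor minus thymus and 4.86% for tumor minus spleen. Tumor minus thymus, the log2 difference was 3.02 for Cd3d, 3.02 for Cd3e, 4.10 for Cd3g and 2.17 for Cd247. For the kinases and Lat it was 3.07 (Lck), 2.62 (Zap70) and 2.55 (Lat). Tumor minus spleen, it was 3.18 for Cd3d, 3.11 for Cd3e, 3.68 for Cd3g and 2.64 for Cd247, and 2.85 for Lck, 3.16 for Zap70 and 2.24 for Lat. Cells of other lineages made up 83.9% and 67.3% of the tumor cells without CD8 RNA. Without them 5 and 5 of these differences were called, beside 9.38% and 6.34% of all genes. Tumor minus thymus, the differences were then 1.46 for Cd3d, 1.504 for Cd3e, 2.60 for Cd3g and 0.29 for Cd247. The median over all genes was 0.79. That of Cd247 was not called, and that of Lat (0.70) was called but lay below this median. In cells thinned to 1000 UMIs with each cell kept in its class, a choice made after seeing the data, 6 of the 7 differences from the thymus were called (beside 5.56% of all genes; not Zap70, 2.06) and all 7 from the spleen (beside 5.65%). With the classes redrawn from the thinned UMIs, the tumor cells without CD8 RNA rose from 112 and 49 to 319 and 295. From the thymus Cd3g alone was then called (1.12), and from the spleen Cd3d (0.85), Cd3e (1.13) and Cd3g (0.96). The fits thinned or without other lineages treated the spread of each gene as known. With total UMIs as the scaling in place of TMM and with all cells, all 7 genes were called in both differences. The shares of all genes called were 6.13% and 4.76%. Without the other lineages 4 and 3 were called, beside 3.32% and 1.76% of all genes.

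Splenic cells without CD8 RNA had a median of 1252 and 1381 UMIs, and the part of this low depth in the next difference was not tested. The effect of CD8 RNA on Fyn differed by -1.15, spleen minus thymus, in the same test, beside 1.11% of all genes called. Without the thymus or the spleen library labelled Pdcd1 cKO it was -0.99 and -1.07 and was not called.

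Scaled by total UMIs, the ratio between labels had opposite signs in the thymus and the other tissues for 3 genes. Their counting intervals left out 0 on both sides. The signs of Cd3e and Cd3g differed as well, but their thymic intervals included 0. By the median of ratios, or without mitochondrial, ribosomal and Malat1 UMIs, the splenic interval of Zap70 included 0 too. Spleen minus thymus, the ratios differed by 0.91 for Lck, 0.94 for Zap70 and 1.08 for Lat. Tumor minus thymus, they differed by 1.17 for Lck, 1.30 for Zap70 and 1.47 for Lat. With 1 library per label and tissue these differences were not tested.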

How the results depend on the processing

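Each label had 1 library per tissue, so no difference between labels within a tissue was tested, and a tissue difference rests on 2 libraries each. Splenic cells were shallow, CD8 classes rest on single UMIs, and the tumor libraries held many cells of other lineages. Pdcd1 RNA did not follow the labels in the thymus and the spleen. In the tumors it was close to equal by CPM with all cells. Without the other lineages it was lower under the label Pdcd1 cKO (188 and 153 CPM). Calls with infinite prior degrees of freedom (no filter on low counts, the CD8 fits thinned or without other lineages, the tissue fits with a library left out and the CD8 fits without a tumor library) treat the spread of each gene as known. Of the values of named genes under alternatives other than a left-out library, 1400 kept their sign and call, 110 lost a call, 19 gained a call and 60 changed sign. Of the ratios between labels 178 stayed within their counting interval and 92 did not. The cause of each change below was not tested. Counts below are of the 9 genes (members) and of all tested genes (genes).

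With at least 2 CD8 UMIs per cell, calls numbered 0 members for spleen over thymus, beside 10.8% of all genes. Calls numbered 24 of 13189 genes for the labels, and 896 of 13020 genes for CD8 RNA in thymus. Also, calls numbered 3748 genes for CD8 RNA in tumor, 1837 genes for the tumor minus thymus effect, and 1289 genes for the tumor minus spleen effect. A change of sign was seen for Cd247 (-0.048) for spleen over thymus, and for Cd3g (0.18) for tumor over thymus, and for Cd3g (0.42) for tumor over spleen. Further signs changed for Lat (0.013) for CD8 RNA in thymus.

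Thinned to 1000 UMIs, with the CD8 classes redrawn, calls numbered 0 members and 381 genes for spleen over thymus. They numbered 3 members and 2286 genes for tumor over thymus, and 1 member and 2391 genes for tumor over spleen. The tissue fits then tested 6179 genes. Also, calls numbered 25 genes for the labels, 4 members and 299 genes for CD8 RNA in tumor, and 1 member and 156 genes for the tumor minus thymus effect. Also, calls numbered 3 members and 98 genes for the tumor minus spleen effect. The fits by CD8 class then tested 8965 genes. The sign also differed for Cd3e (-0.047), Cd247 (-0.22) and Lat (0.090) for spleen over thymus, and for Cd3g (0.40) for tumor over thymus, and for Cd3g (0.70) for tumor over spleen. Signs also changed for Lck (0.024) for CD8 RNA in thymus, and for Fyn (-0.68) for CD8 RNA in tumor, and for Fyn (-0.43) for the tumor minus spleen effect.

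Without the 5% of cells with the most UMIs, calls numbered 0 members and 1211 of 13539 genes for spleen over thymus. For CD8 RNA in spleen they numbered 7 of 12973 genes. Signs changed for Cd3g (0.21) for tumor over spleen, and for Lck (0.014) and Lat (0.025) for CD8 RNA in thymus, and for Zap70 (-0.0060) and Lcp2 (-0.033) for CD8 RNA in spleen.

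With no label term, Fyn lost its call for spleen over thymus (1.06). A change of sign was seen for Lat (0.011) for spleen over thymus.

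With total UMIs as the scaling, chosen after seeing the data, calls numbered 0 members for spleen over thymus, beside 13% of all genes. For CD8 RNA in thymus 1 member was called, beside 2.74% of all genes. The sign also differed for Cd3e (-0.060) and Cd247 (-0.046) for spleen over thymus, and for Cd3e (-0.39) for tumor over thymus, and for Cd3d (-0.15), Cd3e (-0.33) and Zap70 (-0.16) for tumor over spleen. Further signs changed for Lcp2 (-0.020) for CD8 RNA in spleen.

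With total UMIs as the scaling and no other lineages, also chosen after seeing the data, 0 members were called for spleen over thymus. The share of all genes called was 14.9%. Calls numbered 10 of 12471 genes for the labels, and 839 of 12958 genes for CD8 RNA in thymus. Also, calls numbered 63 genes for CD8 RNA in spleen, 4 members and 445 genes for CD8 RNA in tumor, and 2 members and 265 genes for the spleen minus thymus effect. Also, calls numbered 4 members and 430 genes for the tumor minus thymus effect, and 3 members and 228 genes for the tumor minus spleen effect. Signs changed for Cd3e (-0.042) and Cd247 (-0.045) for spleen over thymus, and for Cd3g (0.14) for tumor over spleen, and for Lcp2 (-0.0052) for the labels. Signs also changed for Lcp2 (-0.021) for CD8 RNA in spleen, and for Cd247 (-0.017), Lat (-0.039) and Lcp2 (-0.62) for CD8 RNA in tumor, and for Cd247 (-0.34) and Lcp2 (-0.77) for the tumor minus thymus effect. Further signs changed for Lat (-0.30) and Lcp2 (-0.60) for the tumor minus spleen effect.

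Thinned with the classes kept, chosen after seeing the data, calls numbered 0 members and 967 genes for spleen over thymus. For tumor over thymus they numbered 3278 genes, and for tumor over spleen 2 members and 3402 genes. In these tissue fits 7598 genes were tested. Also, 1 member was called for CD8 RNA in thymus, beside 5.2% of all genes. Of the 8829 genes tested there, calls numbered 847 for CD8 RNA in tumor and 491 for the tumor minus thymus effect. A change of sign was seen for Cd247 (-0.054) and Lat (0.11) for spleen over thymus, and for Cd3g (0.25) for tumor over thymus, and for Cd3g (0.47) for tumor over spleen. Further signs changed for Lck (0.094) for CD8 RNA in thymus, and for Lcp2 (-0.10) for CD8 RNA in spleen, and for Fyn (0.61) for the tumor minus thymus effect.

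With no filter on low counts, calls numbered 224 of 26666 genes for the labels. Of 27371 genes, they numbered 66 for CD8 RNA in spleen and 256 for the spleen minus thymus effect. The sign also differed for Cd3e (-0.025) and Cd247 (-0.0078) for spleen over thymus, and for Cd3g (0.024) for tumor over spleen, and for Lck (0.073) and Lat (0.051) for CD8 RNA in thymus.

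With DESeq2 size factors in edgeR, the sign changed for Lat (0.027) for spleen over thymus.

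By DESeq2's Wald test, calls numbered 23 genes for the labels, 1 member and 283 genes for CD8 RNA in thymus, and 6 genes for CD8 RNA in spleen. Also, calls numbered 1299 genes for CD8 RNA in tumor, 84 genes for the spleen minus thymus effect, and 635 genes for the tumor minus thymus effect. A change of sign was seen for Lat (0.026) for spleen over thymus.

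Without other lineages, calls numbered 10 genes for the labels, 967 genes for CD8 RNA in thymus, and 68 genes for CD8 RNA in spleen. Also, calls numbered 325 genes for the spleen minus thymus effect. The sign also differed for Lat (0.010) for spleen over thymus, and for Cd3g (0.66) for tumor over thymus, and for Cd3g (0.87) for tumor over spleen. Further signs changed for Zap70 (-0.0054) and Lcp2 (-0.034) for the labels, and for Lck (0.0055) for CD8 RNA in thymus, and for Lcp2 (-0.16) for the tumor minus thymus effect.

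With all barcodes, the sign changed for Lck (0.020) for CD8 RNA in thymus, and for Fyn (0.030) for CD8 RNA in spleen.

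Each library was left out in turn. Lowest to highest values follow for members that changed sign and for counts of all genes that moved. The members called are given beside those counts where they moved too. Member calls lost or gained in this way are given with each gene above. For spleen over thymus the ranges were the members called 0 to 1, all genes called 1279 to 2855, Cd3e -0.28 to 0.34 and Cd3g -0.58 to 0.046. Also for spleen over thymus: Cd247 -0.25 to 0.34, Lck -0.22 to 0.66 and Lat -0.59 to 0.53. For tumor over thymus the ranges were Cd3e -0.31 to 0.43 and Cd3g -0.85 to 0.060. For tumor over spleen the ranges were Cd3d -0.31 to 0.63, Cd3e -0.39 to 0.36 and Cd3g -0.63 to 0.33. Also for tumor over spleen: Zap70 -0.42 to 0.68. For the labels the ranges were all genes called 152 to 214, Cd3d -0.0097 to 0.44 and Zap70 -0.11 to 0.53. For CD8 RNA in thymus the ranges were the members called 0 to 3, all genes called 81 to 1130, Lck -0.024 to 0.044 and Lat -0.062 to 0.037. For CD8 RNA in spleen the ranges were all genes called 17 to 92, Cd247 -0.087 to 0.067, Fyn -0.040 to 0.099 and Lcp2 -0.046 to 0.14. For CD8 RNA in tumor the ranges were all genes called 1452 to 2330. For the spleen minus thymus effect the ranges were the members called 0 to 1, all genes called 23 to 412 and Cd3d -0.25 to 0.043. For the tumor minus thymus effect the ranges were all genes called 530 to 1349. For the tumor minus spleen effect the ranges were all genes called 269 to 953.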
